A study of Quercus ilex with 12 samples.

Results

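A set of 100 assembled transcripts (contigs) of holm oak, *Quercus ilex*, was described whose level in leaves was highest in seedlings at the earlier of 2 drought samplings. Contigs were chosen on their TPM, the level that the program RSEM gives after scaling for contig length and library size. Of 47,568 contigs, 23,685 had a mean of at least 2 TPM over the 12 libraries. In 428 of these (1.81%) the lowest of the 3 early drought libraries lay above the highest of the other 9. A further condition removed the 26 contigs in which all 6 drought libraries lay above all 6 controls, which left 402. These were ranked by the ratio of the lowest early drought value to the highest other value, each with 0.1 TPM added, and the first 100 were taken as members. The values that chose the members are given below as a description. Where a test covers a contrast that the rule used, its counts are printed as a description too.

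The libraries came from leaves of seedlings aged 6 months, in 4 groups of 3 biological replicates. S1C and S1D were the well-watered and the unwatered seedlings of the first sampling, and S2C and S2D those of the second. Drought was imposed by withdrawing irrigation. The samplings fell at 20 and 25 days according to the samples' labels and at 17 and 24 days according to the description of the series. The labels name no genotype, and they do not say how many seedlings stand behind a library. Both droughted groups are compared with watered seedlings of the same sampling, and no treatment other than water supply is named.

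Holm oak is an evergreen tree of the Mediterranean region that lives through dry summers. In plants that lose water, the hormone abscisic acid closes the stomata and switches on genes for protective proteins and osmolytes, and many genes respond early in a drought and return towards their former level while others stay changed. The contigs carry identifiers without gene names or descriptions in the files used here. No role is therefore given to any member, the leaf origin of the RNA could not be checked against marker genes, and only 4 members are named. In leaf RNA taken in bulk, fewer cells of a type and less RNA per cell cannot be told apart.

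Depth ran from 11,239,487 to 33,384,307 estimated counts per library (median 22,517,623). Among the 12 libraries, 6 had their best correlation outside their own group, S1C1, S1C2, S1C3, S1D3, S2C2 and S2D3, so that no S1C library had its best match within S1C. The gap was wide in S1C2, S2C2 and S2D3, and at most 0.00723 in S1C1, S1C3 and S1D3. Over 33,805 contigs on log2(CPM + 0.5), S1C2 correlated at best with 0.866 within its group and with 0.918 with S2C2. S2C2 reached 0.888 within its group. S2D3 reached 0.879 within its group and 0.92 with S1C1. The labels were kept, and results that rest on S1C2, S2C2 and S2D3 are given with and without them. Their part in the results was not tested beyond leaving them out. The median TPM of all contigs with a mean of at least 2 TPM also differed between libraries, from 8.42 in S2C1 to 13.6 in S1C2, so TPM levels of different libraries carry a shift that the TMM factors of the count fits adjust for.

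The members had a higher median in all 3 early drought libraries than in any other library, and S1C2 came closest. Their median level was 50.4 TPM in S1D1, 46.1 in S1D2 and 45.9 in S1D3. In the watered libraries of the same sampling the median was 7.32 TPM in S1C1, 18.1 in S1C2 and 7.69 in S1C3. At the second sampling it was 3.96, 7.88 and 4.02 TPM in the 3 watered libraries and 12.3, 11.6 and 7.61 TPM in the 3 droughted libraries. Within the watered libraries of each sampling, replicate 2 had the highest median, and among the second-sampling drought libraries S2D3 had the lowest.

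**Figure D1:**
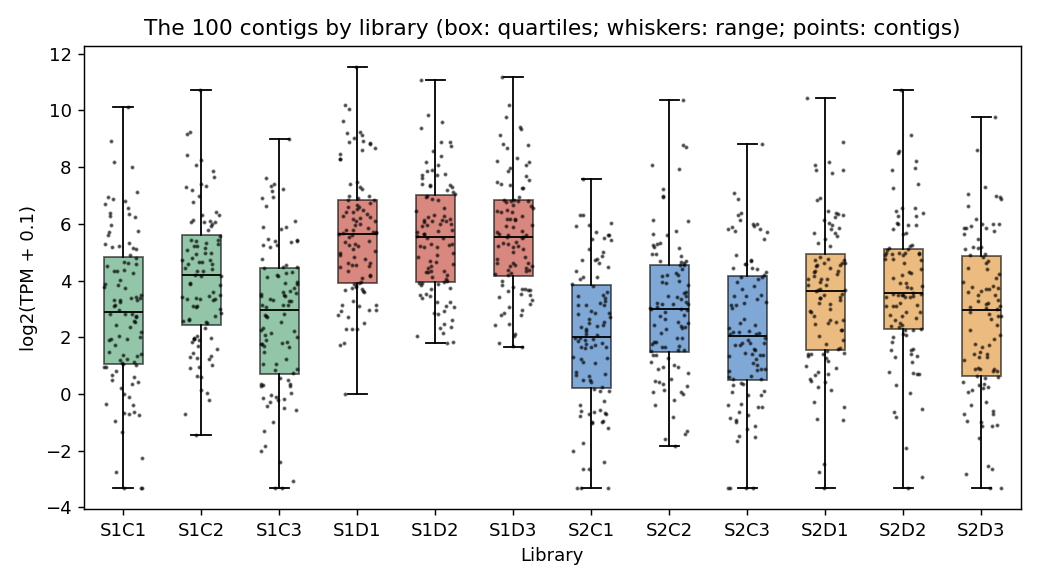
Level of each of the 100 members (points, log2(TPM + 0.1)) in the 12 libraries, with boxes for the quartiles, a line for the median and whiskers for the range, coloured by group. The medians of the 3 early drought libraries (45.9 to 50.4 TPM) stand above those of the other 9 (3.96 to 18.1 TPM), which is what the rule asked for.

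In sum, the members made up 1.59%, 1.25% and 1.36% of all TPM in S1D1, S1D2 and S1D3. In the other 9 libraries the sum ran from 0.139% in S2C1 to 0.692% in S1C2. As group means, the sums were 13994 ± 1738 TPM in S1D, 4604 ± 2116 in S1C, 2542 ± 1519 in S2C and 4788 ± 1355 in S2D (SD, n = 3). The most abundant member alone held a sizeable part, and without it the sums were 11520 ± 1322, 3507 ± 1554, 1887 ± 923 and 3476 ± 944 TPM in the same order. The sum in S2D was close to that in S1C and above that in S2C by less than the 2 SDs together. Member by member, the S1D mean was 1.64 to 71.7 times the S1C mean (median 3.54), and at least 2-fold the S1C mean in 94 of the 100. It was 1.6 to 104 times the S2D mean (median 3.42). The highest of these ratios, 71.7 and 104, were taken over means of 0.157 TPM in S1C and 0.14 TPM in S2D. Those means rest on at most 8.22 and 9.06 estimated counts per library.

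**Figure D2:**
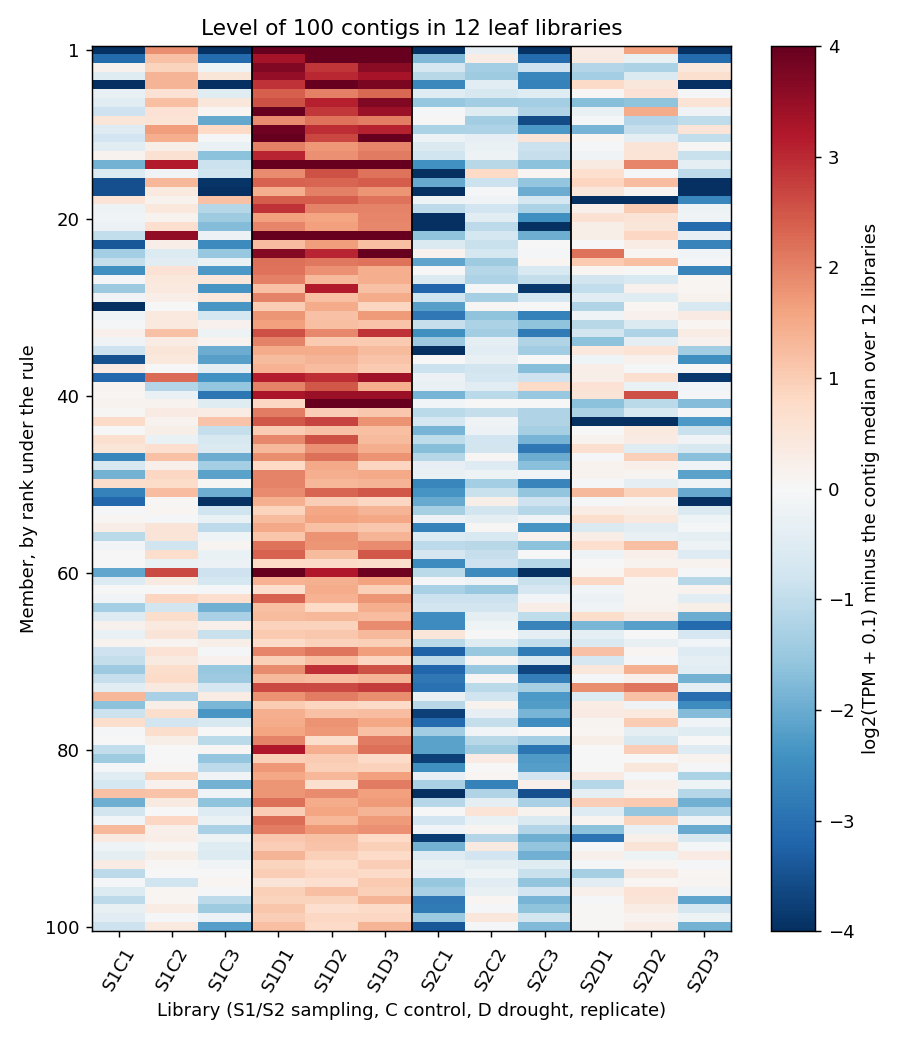
Level of each member (rows, by rank) in each library (columns), as log2(TPM + 0.1) minus the median of that contig over the 12 libraries; red is above and blue below that median. The 3 early drought columns are red in nearly all rows. S1C2 is redder than S1C1 and S1C3, and S2C1 and S2C3 are the bluest columns as a whole.

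The member ranked first, contig-7879000010, is a short contig of 262 bases that was close to absent outside early drought. It had 38 TPM in S1D1, 139 in S1D2 and 71.6 in S1D3. Of the other libraries, S1C2 had 5.5, S2D2 4.65, S2D1 1.86 and S2C2 1.13 TPM, and S1C1, S1C3, S2C1, S2C3 and S2D3 were at 0. The early drought values rest on 122.7 to 385.7 estimated counts per library and the highest other value on 19.2. The 3 early drought libraries themselves differed widely, at 82.9 ± 51.5 TPM (SD, n = 3). The edgeR log2 fold change of S1D against S1C was 5.62 (SE 1.76).

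The most abundant member, contig-34000002 (1446 bases, rank 98), was expressed throughout and varied among the controls. It had 2957, 2162 and 2304 TPM in S1D1, S1D2 and S1D3. In the watered libraries it had 1116, 1670 and 506 TPM in S1C1, S1C2 and S1C3 and 193, 1328 and 445 TPM in S2C1, S2C2 and S2C3. The late drought libraries had 1403, 1671 and 863 TPM in S2D1, S2D2 and S2D3. The highest of these, S2D2 and S1C2, were not far below the lowest early drought library. The group means were 2474 ± 424 TPM in S1D, 1097 ± 582 in S1C, 655 ± 596 in S2C and 1312 ± 411 in S2D (SD, n = 3), and those of S2D overlap with both groups of controls. This contig drew 19030 to 116735 estimated counts in the libraries of the first sampling, so counting error is small beside the spread between replicates.

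**Figure D3:**
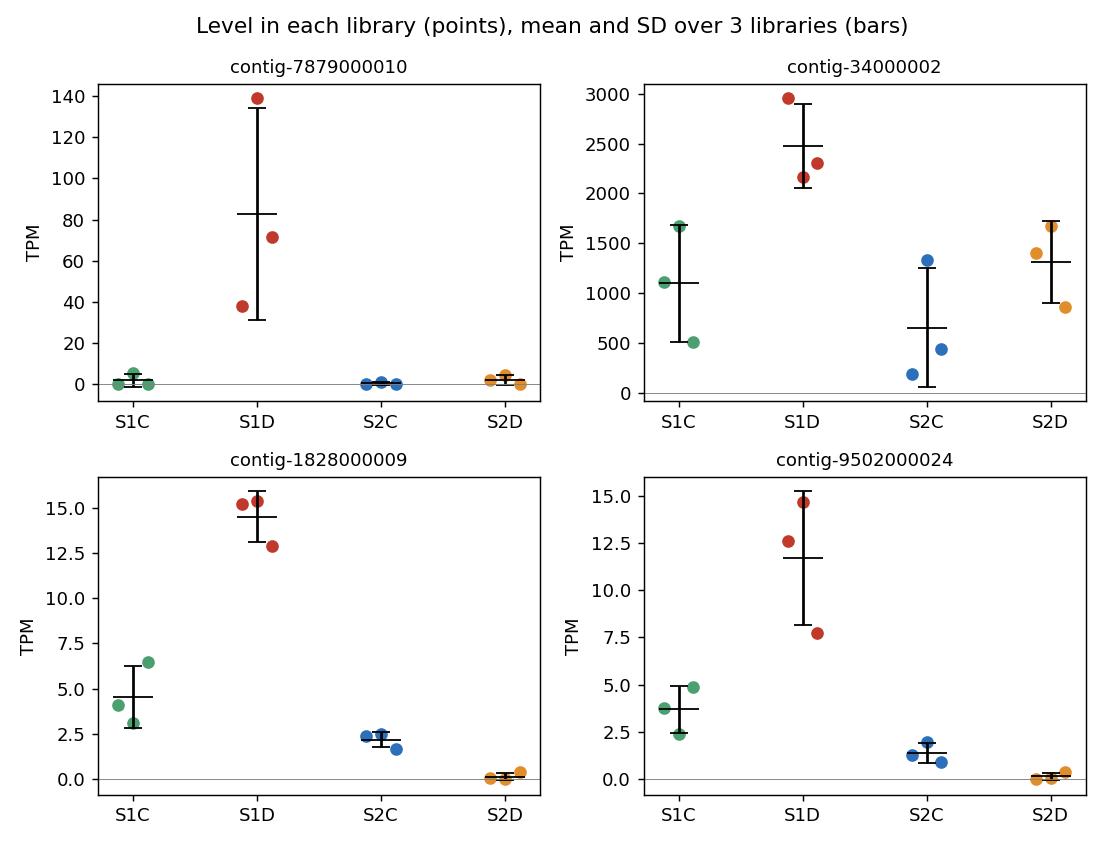
TPM of the 4 named members in each library (points), with the mean and SD of 3 libraries (bars), for the 4 groups; each panel has its own linear axis. In each panel the 3 early drought points lie above all others, and in the 2 lower panels the late drought points lie at or near 0, below the watered points of the same sampling.

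The members' spread between replicates was lowest in S1D, the group whose values chose them. The coefficient of variation of the members over the 3 S1D libraries had a median of 20%, against 27.3% over all contigs with a mean of at least 2 TPM. In S1C, S2C and S2D the members' median was 48.5%, 46% and 46.6%, against 33.2%, 43.8% and 34.2% over all contigs. The low value in S1D follows in part from the rule, which ranks by the lowest of the 3. S1D1 was the highest of the 3 in 40 members, S1D2 in 37 and S1D3 in 23, while S1D2 was the lowest in 43, S1D3 in 30 and S1D1 in 27. The ratio of the highest to the lowest of the 3 had a median of 1.49 and was over 2 in 21 members. At its largest, 15.9, the member ranked 41 had 0.9 TPM in S1D1 and 14.3 in S1D2.

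Outside early drought, 1 watered library of the same sampling, S1C2, most often held the highest value. It was the highest of the other 9 libraries in 43 members, although it was the highest in 15.7% of all contigs with a mean of at least 2 TPM. S2D2 followed with 23 members (13.5% of all contigs), S2D1 with 9 (10.2%) and S1C1 with 8 (12.3%). S1C3 and S2C2 were each the highest in 5 members (10.4% and 5.08% of all contigs), S2D3 in 4 (10.8%), S2C3 in 3 (9.88%) and S2C1 in 0 (12.1%). By group, the highest other library was an S1C library in 56 members, an S2D library in 36 and an S2C library in 8 (38.4%, 34.5% and 27.1% of all contigs). S1C2 accounted for 43 of the 56, and S1C1 and S1C3 for less than their shares of all contigs. By group mean the order was another one, since S2D was above S1C and S2C in 56 members (34.2% of all contigs). S1C2, which stood apart from its group, was above both S1C1 and S1C3 in 77 members (40.1% of all contigs), and its level was a median of 1.84 times the mean of those 2 libraries, against 1.02 times over all contigs.

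**Figure D4:**
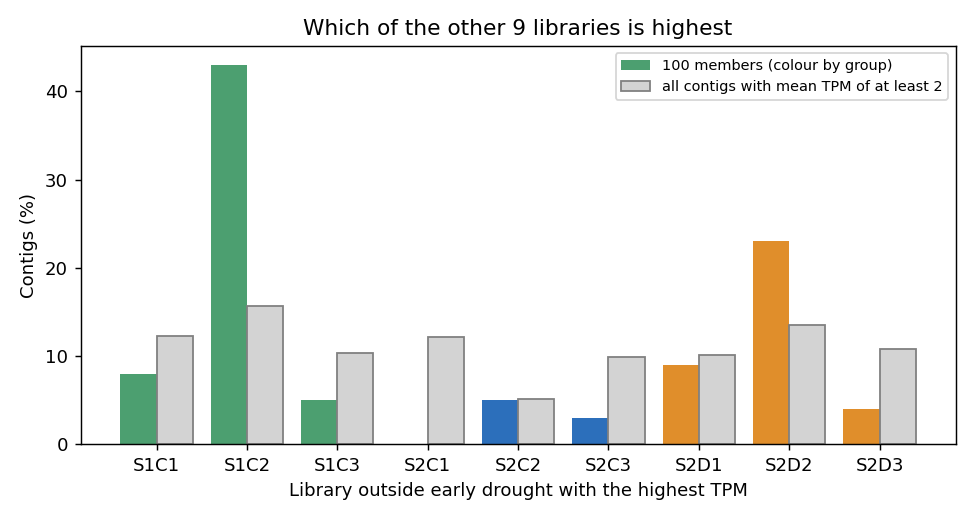
Share of contigs (%) in which each of the 9 libraries outside early drought had the highest TPM of the 9, for the 100 members (coloured by group) and for all contigs with a mean of at least 2 TPM (grey). S1C2 (43 members) and S2D2 (23) stand above the grey bars, and S2C1 has no member.

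The name of the set, raised only in early drought, restates the rule for the comparison with every single library. It was not tested on the group means of the second sampling, which are given as a description. The mean of S2D was at least 2-fold that of S2C in 44 members and at most a factor of 0.5 of it in 5, with a median ratio of 1.87 and a range of 0.064 to 13.4. Over all contigs with a mean of at least 2 TPM, 23.2% had an S2D mean at least 2-fold that of S2C and 13.6% one at most 0.5 times it. The 3 S2D libraries all lay above the 3 S2C libraries in 31 members, against 18.5% of all contigs, and all below them in 4, against 9%. With TMM-scaled CPM in place of TPM the first number was 23, against 13.7% of all contigs. Without S2D3 it was 50 members, against 28.4% of all contigs, and without S1C2, S2C2 and S2D3 it was 66, against 44% of all contigs for the same libraries. S2D3 was below both other S2D libraries in 64 members (38.2% of all contigs) and S2C2 above both other S2C libraries in 66 (48.2%). The contrast of S2D with S2C is used by the rule in part, through the contigs it removed, and nothing is read from these shares.

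Against all 6 controls, none of the members had the 3 S2D libraries on top, because the rule removed such contigs (3.69% of all contigs). Taken one at a time, S2D1 lay above all 6 controls in 15 members (4171 of all 23,685 contigs), S2D2 in 29 (19.8%) and S2D3 in 5 (15.5%). In 9 members both S2D1 and S2D2 did so (11.3%). With S1C2 left out of the controls this became 35 members (15.2%), and with S2C2 left out as well 47 (18.1%). With all 3 S2D libraries kept and S1C2 left out, 8 members had the S2D libraries on top (5.54%). The S2D libraries all lay below the 6 controls in 3 members (2.26%), above the 3 S1C libraries in 3 (6.13%) and below them in 7 (7.85%). The S2D mean lay above both control means in 56 members (34.2% of all contigs) and below both in 8 (28.8%). The most frequent order of the 3 other group means was S2D, S1C, S2C in 49 members (26.7% of all contigs), followed by S1C, S2D, S2C in 33 (26.8%).

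No member passed the threshold of the main count fit in any contrast. edgeR was run on all 12 libraries and 33,602 contigs, all 100 members among them, with Benjamini-Hochberg adjustment at 0.05. For S1D against S1C the members had a median log2 fold change of 1.96 (quartiles 1.44 and 2.67), against -0.04 over all contigs tested, and all 100 were positive by choice. edgeR called 0 of them, as it called 0% of all contigs higher, and 84 had an unadjusted p under 0.05 (5.34% of all contigs). DESeq2 called 54 members higher (1.51%), limma-trend 6 on log2(TPM + 1) (0.0417%) and 5 on log2(TPM + 0.1) (0.0357%). Without S1C2, edgeR called 2 (0.0114%), and without S1C2, S2C2 and S2D3 it called 52 (1.44%). Since the rule used this contrast, nothing is read from these numbers beyond their size.

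For S2D against S2C the median log2 fold change of the members was 0.7 (quartiles 0.14 and 1.24), against 0.04 over all contigs, and 80 of the 100 were positive. edgeR called 0 members, against 0.00893% of all contigs higher and 0% lower. At an unadjusted p under 0.05, 20 members were higher (10.7% of all contigs) and 4 lower (12%). With DESeq2, 11 members were higher (5.22%) and 4 lower (7.54%). limma-trend on log2(TPM + 1) gave 2 members higher (0.423%) and 0 lower (0.259%), and on log2(TPM + 0.1) it gave 3 (0.485%) and 1 (0.22%). Among the 70 members with at least 10 counts in every library, edgeR called 3 higher (0.901%) and 1 lower (1.47%). With S1C2, S2C2 and S2D3 left out, edgeR called 34 higher (7.64%) and 2 lower (6.13%), and the median became 1.12. Without S2C2 alone it called 13 higher (6.08%) and 2 lower (5.14%), and without S2D3 alone 0 higher (0.0764%) and 2 lower (0.0283%). From the early to the late drought libraries the median was -1.77, with all 100 members negative by choice. edgeR called 0 of them (0.00298% of all contigs lower), with 69 at an unadjusted p under 0.05 (2.84%). The rule fixed this last contrast, and it used that of S2D with S2C in part, so nothing is read from these numbers.

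**Figure D5:**
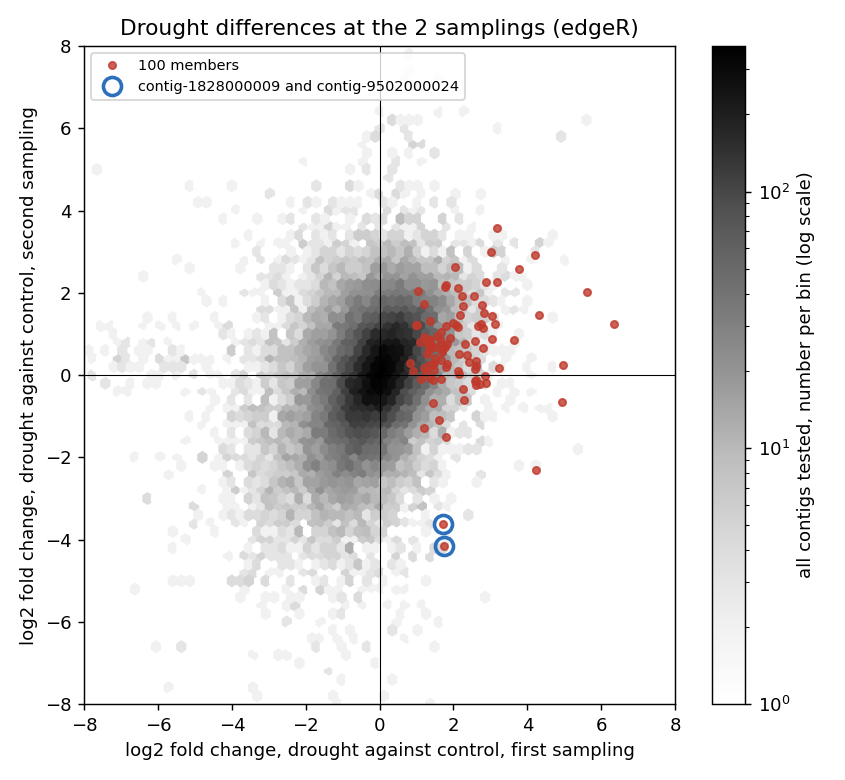
edgeR log2 fold change of drought against control at the first sampling (x axis) and the second (y axis) for all contigs tested (grey, darker for more contigs, log scale), the 100 members (red) and the 2 members with the lowest second-sampling value (blue rings). All members lie right of 0 by choice and 80 lie above 0 on the y axis; 203 contigs lie outside the plotted range of -8 to 8.

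In 4 members the 3 S2D libraries all lay below the 3 S2C libraries, against 9% of all contigs with a mean of at least 2 TPM. In these 4 the direction of drought against control was opposite at the 2 samplings. They held ranks 18, 41, 43 and 87. The 2 with the lowest log2 fold change of S2D against S2C were contig-1828000009 and contig-9502000024. In these, transcripts were nearly gone in late drought while watered leaves still had them. contig-1828000009 (1140 bases, rank 18) had 15.2, 15.4 and 12.9 TPM in S1D1, S1D2 and S1D3. It had 4.07, 3.11 and 6.45 TPM in S1C1, S1C2 and S1C3 and 2.38, 2.49 and 1.69 TPM in S2C1, S2C2 and S2C3. In S2D1, S2D2 and S2D3 it had 0.05, 0 and 0.37 TPM, from 1, 0 and 9.06 estimated counts. Each group of 3 was thus clear of the others, with S1D highest and S2D lowest.

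contig-9502000024 (1756 bases, rank 43) followed the same course at similar levels. It had 12.6, 14.7 and 7.76 TPM in S1D1, S1D2 and S1D3. In the watered leaves it had 3.78, 2.39 and 4.87 TPM in S1C1, S1C2 and S1C3 and 1.29, 1.95 and 0.88 TPM in S2C1, S2C2 and S2C3. S2D1, S2D2 and S2D3 had 0, 0.03 and 0.36 TPM, from 0, 1 and 13.9 estimated counts. Again the 4 groups did not overlap. In both contigs S2D3, the droughted library that resembled S1C1, had the highest level of the 3 late drought libraries.

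The edgeR log2 fold change of S2D against S2C was -4.16 (SE 0.89) for contig-1828000009 and -3.61 (SE 0.95) for contig-9502000024, with adjusted p of 0.0829 and 0.0955, so neither passed the threshold. Both were taken because the S2D libraries lay below the S2C libraries and for the size of that difference, and these values are a description. At the first sampling the log2 fold change of S1D against S1C was 1.74 (SE 0.76) and 1.72 (SE 0.84). Over all 4 members with opposite directions, the second-sampling log2 fold change ran from -4.16 to -1.51 and the first-sampling one from 1.72 to 4.25.

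The contrast of the watered groups is the one comparison that the rule did not use, because it treats the 6 controls alike. With all 12 libraries the members tended to be lower in watered leaves of the second sampling, but no member passed the main edgeR test. Without S1C2, 45 of the 100 log2 fold changes were positive, with a median of -0.1 against 0.01 over all contigs. Without S2C2 instead, 20 were positive. The S2C mean was below the S1C mean in 87 members (66.6% of all contigs with a mean of at least 2 TPM), with a median ratio of 0.552 and a range of 0.0752 to 2.4. The 3 S2C libraries lay all below the 3 S1C libraries in 31 members (19.1% of all contigs) and all above them in 1 (5.56%). In the edgeR fit the median log2 fold change was -0.55 (quartiles -1 and -0.08), against -0.12 over all contigs, and 24 of the 100 were positive. At an adjusted p under 0.05 edgeR called 0 members, against 0.00893% of all contigs higher and 0.0119% lower. At an unadjusted p under 0.05, 24 members were lower (8.09% of all contigs) and 2 higher (8.95%). DESeq2 called 9 members lower (2.53%) and 1 higher (4.51%). limma-trend on log2(TPM + 1) called 1 lower (0.0565%) and 0 higher (0.0684%). The smaller pseudocount of 0.1 TPM gave 1 lower (0.0476%) and 0 higher (0.0298%). On TPM without TMM factors the median of all contigs itself lay lower in S2C, at -0.31 on log2(TPM + 1), and that of the members at -0.66. Relative to all contigs the members were thus lower on both scales. For S2D against S2C the same scale put all contigs at 0.18 and the members at 0.72.

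This difference between the watered groups changed in size with the libraries left out, and the cause was not tested. With 1 library left out, the members' median lay highest without S1C2, in which the members were high, and lowest without S2C2. Without S1C2 the median was -0.1 against 0.01 over all contigs. At an unadjusted p under 0.05, 14 members were lower (7.43%) and 11 higher (8.53%). At the adjusted threshold 0 members were called (0.00286% of all contigs lower, 0% higher). Without S2C2 the median was -0.83 against -0.29, and edgeR called 13 lower (4.37%) and 1 higher (4.38%). With S1C2, S2C2 and S2D3 all left out, the median was -0.42 against -0.1, and edgeR called 9 members lower (4.93%) and 9 higher (4.61%). For the 4 named members the log2 fold changes were -1.69 (SE 1.76) for contig-7879000010, -0.45 (SE 0.64) for contig-34000002, -0.73 (SE 0.75) for contig-1828000009 and -1.13 (SE 0.83) for contig-9502000024. Their edgeR adjusted p were 0.657, 0.754, 0.65 and 0.505, and over all settings tried they ranged from 0.311 to 1, 0.169 to 0.994, 0.204 to 0.9 and 0.0902 to 0.753.

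The 44 members with an S2D mean at least 2-fold that of S2C differed from the 51 between the 2-fold limits mainly in the watered leaves of the second sampling. Their medians of the group means were 12.7 TPM in S1C, 52.2 in S1D, 3.79 in S2C and 13.6 in S2D. In the 51 members between the 2-fold limits they were 12.4, 49, 11.8 and 13.4 TPM. The late drought levels of these classes were alike, and the watered ones of the second sampling were not. The classes were cut on S2C and S2D, so the last of these differences follows from the cut. Of the first 20 members by rank, 9 were in the first class, 10 in the second and 1 among the 5 members with an S2D mean at most 0.5 times that of S2C. The medians of those 5 were 3.68 TPM in S1C, 11.7 in S1D, 1.37 in S2C and 0.14 in S2D.

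In contig length, which the rule did not use, the members were ordinary. Their lengths ran from 241 to 3554 bases, the median being 1144 (quartiles 746 and 1638), against a median of 1176 (707 and 1800) over all contigs with a mean of at least 2 TPM. Contigs of 300 bases or fewer made up 3 of the 100 members and 2.65% of all. RSEM divides reads that match several contigs, which leaves counts that are not whole, and 70.9% of the members' 1200 estimated counts were not whole within 0.005, against 73% over all contigs. In 3 members every count was whole. Values of contigs that share reads, such as alleles or close paralogs, depend on each other, and the members cannot be taken as 100 separate genes.

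Counts behind the early drought values differed between members, and no limit for a sufficient count was set. The lowest estimated count of any member in an S1D library was 31, and 12 members had under 100 in at least 1 of the 3. In the other 9 libraries 8 members had a count of 0 at least once and 0 members had it in all 9. Fewer than 10 counts were found for 17 members in S2C3, the shallowest library, for 12 in S2C1, 11 in S2D3, 9 in S1C3 and 8 or fewer in each of the rest.

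The order of the members falls off quickly, and the limit at rank 100 separates near-equal contigs. The ratio that ranked them was 6.8 for the first member, 4.44 for the next, 2.4 at rank 10 and 1.52 at rank 50. The last member, at rank 100, had a ratio of 1.2895 (774 against 600 TPM), and the first contig outside had 1.2888 (20.8 against 16.1 TPM). The last of the 402 contigs had a ratio of 1. The mean over the 12 libraries was 2 TPM in the lowest member and 1385 TPM in the highest, and 7 members had less than 3 TPM.

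Contigs that set 1 group of 3 libraries above the other 9 were found for each group. There were 428 for S1D (1.81% of 23,685), 337 for S1C (1.42%), 593 for S2C (2.5%) and 137 for S2D (0.578%). The reverse, all 3 libraries below the other 9, was found for 655, 34, 1830 and 74 contigs. S1D was thus neither the group with the most contigs standing above the rest nor the one with the fewest. With S1C2, S2C2 and S2D3 left out, S1D stood above the rest in 828 of 23,291 contigs (3.56%), while S1C, S2C and S2D, then of 2 libraries each, did so in 2635, 2916 and 918. A group of 2 libraries passes more easily than one of 3, so these numbers do not rank the groups.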

How the data were processed

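RNA from holm oak leaves was measured in 12 libraries (Illumina TruSeq Stranded mRNA kit). The deposited estimated counts, TPM and FPKM values were made by the authors with cutadapt 1.9 and RSEM, as the submitters' processing notes list them. RSEM's version, the assembler and the aligner were not given in the sources used here. Estimated counts as deposited are not normalized, the authors' TPM scale every library to 1 common total, and the deposited FPKM served only as an alternative. Members were chosen on TPM with pandas 2.3.3 (Python 3.11.15). Members and lists were chosen with earlier results of these data known. Rounded counts were fitted with edgeR 4.0.16 (R 4.3.3; quasi-likelihood, TMM, default filter by group, Benjamini-Hochberg adjustment over all contigs tested). The SE is the log2 fold change divided by the square root of F. Spread was wide, with a common biological coefficient of variation of 0.685. Alternatives changed the normalization, filter, samples, replicate block and tool. DESeq2 1.42.0 and limma 3.58.1 were alternatives. Named were the member ranked first, the most abundant in S1D, and the 2 whose S2D libraries all lay below S2C with the lowest log2 fold change. Contig sequences were not used here. Gene lists for drought pathways were planned but could not be counted, since contigs have no names. p-values measure only the spread between these libraries, which may in part be technical.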

Additional observations from a re-analysis of the deposited data

Results flagged for a closer look

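In 4 of the 100 members the 3 drought libraries lay above the 3 watered ones at the first sampling and below them at the second. All 3 S2D libraries lay below the 3 S2C libraries in 9% of all contigs with a mean of at least 2 TPM. The first direction was fixed by the choice of the members, and the second by the choice of these 4 among them. The difference between the drought effects was -5.9 on the log2 scale for contig-1828000009 (SE 1.17) and -5.33 for contig-9502000024 (SE 1.26). It was largest in the member ranked 41, at -6.55 (SE 1.11), and smallest in the member ranked 87, at -3.32 (SE 0.47). In edgeR the adjusted p of this difference was 0.467 for contig-1828000009 and 0.483 for contig-9502000024. Over the 4 members it ran from 0.174 to 0.483, so it passed the threshold in none, although all 4 had an unadjusted p under 0.05. Because the 4 were picked for both directions, their p-values are a description. Of all 100 members, 32 had a negative difference at an unadjusted p under 0.05, against 1287 of 33,602 contigs. The rule fixed the first-sampling part of it for all members.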

How the results depend on the processing

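The setting without S1C2, S2C2 and S2D3 together was added after the data were seen. The 402 contigs meeting the rule became 912, 614 and 904 without S1D replicates 1, 2 and 3 and 785 without S2D replicate 2 (368 to 912 over all 12 libraries left out in turn), and 317 to 483 with FPKM, CPM or other limits. Of the 100 members, 55 to 98 stayed among the first 100 with 1 library left out (63 without S1C replicate 2, 60, 64 and 56 without S1D replicates 1, 2 and 3, 55 without S2D replicate 2) and 42 without the 3 together. Members called between the watered groups numbered 0 with edgeR (0.0119% of all contigs lower, 0.00893% higher) and 10 with DESeq2 (2.53% lower, 4.51% higher). With limma-trend they numbered 1 on log2(TPM + 1) (0.0565% lower, 0.0684% higher) and 1 on log2(TPM + 0.1) (0.0476% lower, 0.0298% higher). With 1 library left out they numbered 0 to 14 (14 without S2C replicate 2, against 4.37% lower and 4.38% higher). Without the 3 together they numbered 18 (4.93% lower, 4.61% higher). For drought at the first sampling they were 0 with edgeR (0% of all contigs higher), 54 with DESeq2 (1.51%) and 6 and 5 with limma-trend (0.0417% and 0.0357%). They were 0 to 2 with 1 library left out (2 without S1C replicate 2, 0.0114%) and 52 without the 3 together (1.44%). At the second they were 0 (0.00893% higher, 0% lower), 15 (5.22%, 7.54%), 2 (0.423%, 0.259%) and 4 (0.485%, 0.22%) in the same order. With 1 library left out they were 0 to 15. They were 15 without S2C replicate 2 (6.08%, 5.14%), 2 without S2D replicate 3 (0.0764%, 0.0283%) and 36 without the 3 together (7.64%, 6.13%). At 10 counts or more in every library 4 of 70 were called (0.901%, 1.47%). Members with all S2D above all S2C libraries numbered 31 (18.5% of all contigs) and 31 to 50 with 1 library left out (50 without S2D replicate 3, 28.4%). They numbered 66 without the 3 together (44%) and 23 on CPM (13.7%). With 1 library left out the median log2 fold change of the members ran from -0.83 (without S2C replicate 2) to -0.1 (without S1C replicate 2) between the watered groups, from 1.78 to 2.39 for drought at the first sampling and from 0.46 to 0.93 at the second, where it was 1.12 without the 3 together. The cause of these shifts was not tested. Without S1C replicate 2, the only S1C library with counts of contig-7879000010, its watered contrast turned to 3.68 (-5.4 to 3.68 with 1 library left out). Libraries sharing a replicate number were not taken for pairs: of 18 correlations between deviations of same-numbered libraries 6 exceeded 0.1 (-0.169 to 0.262), and 6 of 12 libraries correlated best with their own number. With the replicate block 0, 0 and 0 members were called in the 3 contrasts, with medians of -0.48, 2.16 and 0.77.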
